A study of Schizosaccharomyces pombe with 37 samples.

Results

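The small nucleolar RNAs (snoRNAs) of fission yeast, *Schizosaccharomyces pombe*, were followed across wild type and 9 mutants of the cleavage and polyadenylation factor (CPF) or of a polyadenylation signal. Members were taken by identifier or name, as rows filed under the snoRNA series of identifiers or named snR or sno, without annotated antisense RNAs. This left out the snoRNA U3, which is filed under the small nuclear RNA series. The rule took 57 of the 6996 listed features. Of these, sno1 (SPAC222.08c) is a protein-coding gene that shares only the style of name, and the other 56 are described here. Among them snoZ (SPNCRNA.659) is the annotated primary transcript from which 5 snoRNAs are cut. The libraries were strand-specific total RNA, 3 replicates per strain and 30 in all, from cells grown exponentially in rich medium (YES) at 30 °C. All strains were h- leu1-32 ura4-D18 ade6-704 with a *trp1+::ade6+* reporter. Wild type carried nothing further. *yth1-R59C* and *pfs2-F115H* (the latter marked with kanMX) change a single residue in subunits that, with the poly(A) polymerase, form 1 module of CPF. The strains labelled *ssu72Δ*, *dis2Δ*, *ppn1Δ* and *swd22Δ* are given by their labels as kanMX deletions in its phosphatase module. The 3 remaining strains, called PAS-T4A, PAS-T4C and PAS-T4G here, have intact CPF genes and 1 base of the AAUAAA polyadenylation signal of the reporter changed. The signal reads AAUUAA in the strain PAS-T4A, while it was changed to AAUGAA in the strain PAS-T4C, and the RNA of PAS-T4G has AAUCAA there. No reads fell on *ssu72*, *dis2* or *swd22* in their deletions. *ppn1* was still read in the libraries labelled *ppn1Δ* at 76.3, 77.3 and 86.1 CPM, within or just above the wild-type range of 62.8 to 79.3 CPM, so these are named by their label only.

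snoRNAs are short nuclear RNAs that guide chemical modification and cutting of ribosomal RNA. Box C/D snoRNAs, with fibrillarin and its partners, direct methylation of the ribose, and box H/ACA snoRNAs, with the dyskerin homologue Cbf5, direct conversion of uridine to pseudouridine. Their genes are transcribed by RNA polymerase II singly, in clusters or within introns, and the primary transcripts are trimmed by nucleases. In budding yeast the ends of snoRNA transcripts need CPF subunits, among them the phosphatase Ssu72 and the WD40 protein Swd2.

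The sequences below are examples from the 3 sets of snoRNAs described here, chosen to show both classes and not by rank of change. All are read from the RefSeq copy of the genome (ASM294v3) on the strand of the gene, 5′ to 3′. The authors aligned to another version of the same assembly, so the positions are those of RefSeq. Capitals mark the C box TGATGA and the D box CTGA, or the ACA near the 3′ end of H/ACA snoRNAs. The first 3 were higher in *pfs2-F115H*, namely snR36 (chrII:1957286-1957449, minus strand), sno52 (chrI:339548-339642, minus strand) and snR51b (chrI:1200646-1200729, plus strand). The next 3 were higher in *ssu72Δ*, namely snoU14 (chrII:1308634-1308745, plus strand), snoR69 (chrI:5387559-5387641, plus strand) and snoU18 (chrII:2720648-2720733, minus strand), the last within an intron of *ero11*. The final pair, snR91 (chrI:3316466-3316609, minus strand) and snR98 (chrI:2330437-2330647, minus strand), was lower in *swd22Δ* and the PAS mutants.
snR36: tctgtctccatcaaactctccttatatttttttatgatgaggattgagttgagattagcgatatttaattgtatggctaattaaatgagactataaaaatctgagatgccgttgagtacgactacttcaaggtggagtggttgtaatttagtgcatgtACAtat
sno52: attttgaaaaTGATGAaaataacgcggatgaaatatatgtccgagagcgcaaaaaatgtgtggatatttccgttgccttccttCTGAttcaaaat
snR51b: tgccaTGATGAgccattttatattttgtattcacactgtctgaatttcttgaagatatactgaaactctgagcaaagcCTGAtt
snoU14: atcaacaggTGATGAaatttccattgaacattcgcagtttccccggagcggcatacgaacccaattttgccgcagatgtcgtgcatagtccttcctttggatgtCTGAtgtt
snoR69: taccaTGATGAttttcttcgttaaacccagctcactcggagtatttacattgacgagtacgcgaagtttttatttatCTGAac
snoU18: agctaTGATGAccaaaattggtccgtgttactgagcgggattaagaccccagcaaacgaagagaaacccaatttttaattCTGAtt
snR91: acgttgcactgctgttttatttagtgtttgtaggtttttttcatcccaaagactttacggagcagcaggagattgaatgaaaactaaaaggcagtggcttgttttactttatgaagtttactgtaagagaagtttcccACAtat
snR98: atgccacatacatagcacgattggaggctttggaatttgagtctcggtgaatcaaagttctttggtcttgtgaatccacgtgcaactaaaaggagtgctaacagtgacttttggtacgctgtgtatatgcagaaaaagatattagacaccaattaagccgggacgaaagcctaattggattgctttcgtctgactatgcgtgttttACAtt

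TGATGA within the first 20 bases together with CTGA within the last 20 was found in 17 of the 35 snoRNAs that the annotation does not place in the H/ACA class. These letters were found on the same strand in 1 of 6656 stretches of 83 bases from the start of other features (0.0150%). An ACA starting 4 to 12 bases before the end was present in 16 of the 20 H/ACA snoRNAs, counting snR30, which is annotated as U17. It was less particular, since 14.4% of 6557 stretches of 170 bases from other features held it by the same rule. The 17 and the 20 are called the C/D letter group and the H/ACA group below. The H/ACA group was longer, at 142 to 326 bases with a median of 170, than the C/D letter group, at 73 to 112 bases with a median of 83.

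Values are CPM, the reads of a feature scaled to the reads counted in its library, and between 1031965 and 6344396 reads were counted per library. 3 reads, the upper limit that a count of 0 allows, were worth between 0.473 and 2.91 CPM depending on the library, for counting error only. The 56 snoRNAs together held 1153 to 3554 CPM, from 1540 to 16071 reads per library, and 24 to 41 of them had at least 3 reads. A feature was tested if its mean over the 30 libraries was at least 1 CPM, which 38 of the 56 snoRNAs passed. This filter favours snoRNAs that are high in some strain, as with snR36 below.

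The 18 snoRNAs that were not tested fell into 3 kinds. 8 of them lie wholly inside another annotated feature on the same strand and had 0 reads in all 30 libraries. These are snoZ3, snoZ4, snoZ5, snoZ7 and snoZ8 inside snoZ, snoZ30 inside SPNCRNA.1483, snoR68 inside SPNCRNA.1650 and snR97 inside *rad8-antisense-1*. The authors did not count reads shared by several features, so a level of 0 says nothing about these 8 RNAs. A further 6 (sno16, snR5, snR10, snR96, snoR54b and snr62) overlap no other feature and had between 0 and 6 reads in all libraries together. The last 4, snR88, snR41, snoU24 and snoZ15, were seen in all 10 strains at a highest level of 2.69 CPM or less.

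In wild type the level per length differed widely among the tested snoRNAs. snR30, the U17 RNA needed for cutting the precursor of 18S ribosomal RNA, was the highest at 3056 CPM per kb, followed by sno12 at 1148 CPM per kb, snR95 at 909 CPM per kb and snR191 at 448 CPM per kb. snoU14, which is also needed for 18S ribosomal RNA in budding yeast, followed at 266 CPM per kb and was the highest of the C/D letter group. snR36, a pseudouridine guide, was the lowest tested at 3.75 CPM per kb. In CPM, snR30 alone made up 49.7% to 53.7% of the summed snoRNA level of wild-type libraries. RNAs this short can be lost in part when libraries are made, so levels per length compare what was read rather than what the cell held.

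**Figure D1:**
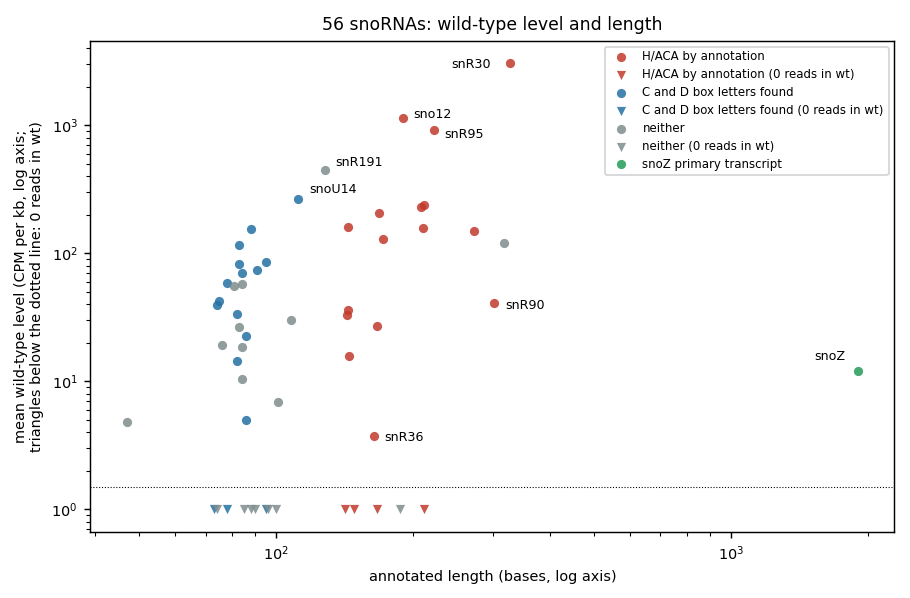
Mean level in wild type (CPM per kb, log axis, n = 3) against annotated length (bases, log axis) for the 56 snoRNAs, coloured by class, with snoRNAs that had 0 reads in wild type drawn as triangles below the dotted line. H/ACA snoRNAs are the longer ones and take most of the highest places, led by snR30 at 3056 CPM per kb.

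Each mutant was compared with wild type by limma on log2(CPM + 1), in 1 fit over the 10 strains and for all 5911 features with a mean of at least 1 CPM. A snoRNA was called where p, adjusted over all features by Benjamini-Hochberg, was under 0.05 and the change reached 2-fold on that scale, which understates changes of low RNAs. In bulk RNA a change in every cell and a change in some cells of the culture cannot be told apart. The labels do not say whether replicates were separate cultures, so p-values measure the spread between these samples. Of 342 tests of snoRNAs, 37 were called, 19 higher and 18 lower. The 19 higher calls fell on 14 snoRNAs, 9 of the calls in the H/ACA group, and all 18 lower calls fell on 6 snoRNAs of the H/ACA group. 20 of the 38 tested snoRNAs were called in at least 1 mutant and 9 in at least 2. The 9 comparisons share the 3 wild-type libraries and are therefore not independent of each other. Statements below that all libraries of a mutant lay above or below wild type describe RNAs named for their change. They are no separate support, and how many of all features lie apart in this way was not counted.

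**Figure D2:**
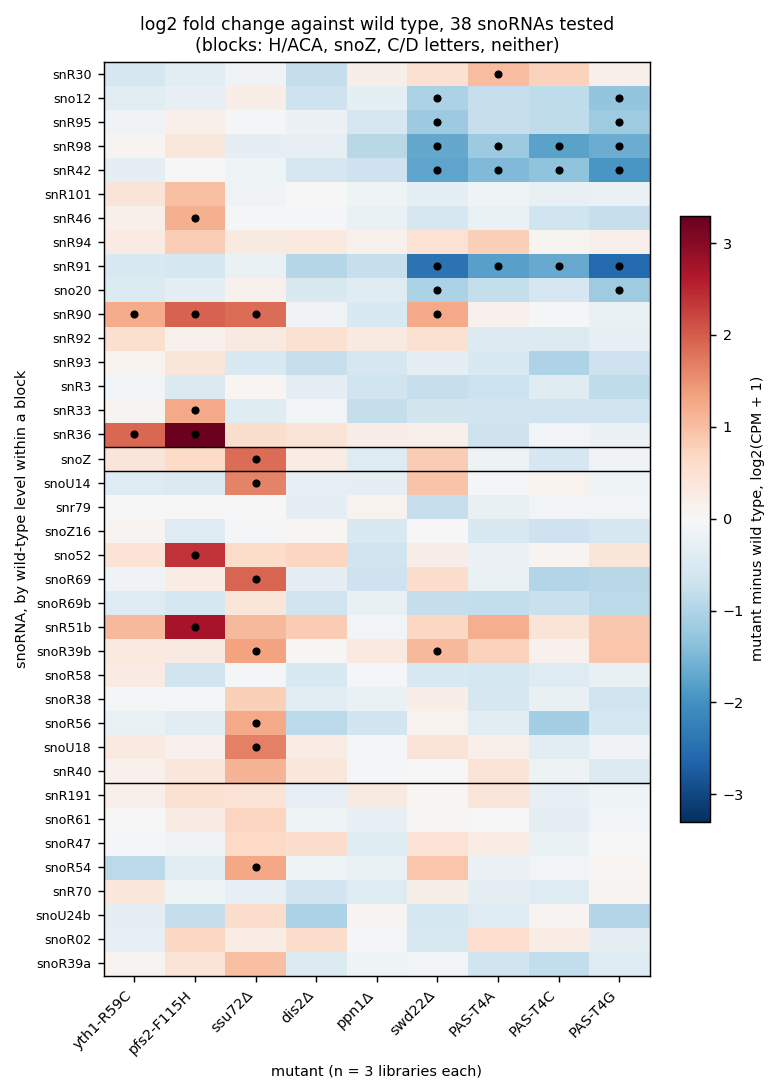
Log2 fold change against wild type, on log2(CPM + 1), of the 38 tested snoRNAs (lines) in the 9 mutants (columns, n = 3 each), with a dot where the change was called. Dots for a rise gather in *pfs2-F115H* (6) and *ssu72Δ* (8), and dots for a fall lie on 6 H/ACA snoRNAs in *swd22Δ* and PAS-T4G and on 3 of them in PAS-T4A and PAS-T4C.

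In *yth1-R59C*, a mutant of the zinc finger subunit of CPF that contacts the polyadenylation signal, 2 H/ACA snoRNAs were higher. snR36 was at 3.09, 6.87 and 5.48 CPM, against 0.251, 0.788 and 0.808 CPM in wild type, and snR90 at 28.8, 32.2 and 24.1 CPM against 11.8, 6.94 and 18.04 CPM. All 3 mutant libraries lay above all 3 of wild type for both RNAs, which largely follows from the calls. The limma change was 1.90 for snR36 (SE 0.41, adjusted p = 0.0046) and 1.23 for snR90 (SE 0.36, adjusted p = 0.047). The snR36 values rest on 6, 13 and 31 reads in the mutant and 1, 5 and 3 in wild type. Both calls depended on the setting, since snR36 was lost with a pseudocount of 0.1 or 4 CPM, and snR90 when wt replicate 1 or 2 or any *yth1-R59C* library was left out (1 to 2 calls over the single omissions). The snR90 call was also lost with a replicate block, DESeq2, median-of-ratios scaling, a pseudocount of 0.1 CPM or no filter, and was kept under 9 of 19 alternatives. Of the 38 snoRNAs, 2 were called higher, where 0.677% of all features were, and 0 lower, where 0.135% were. Without the 2-fold minimum the counts were the same 2 and 0, beside 2.84% and 1.02% of all features. The median change of the 38 was 0.08 against 0.09 for all features, on the log2(CPM + 1) scale.

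In *pfs2-F115H*, a mutant of the WD40 scaffold subunit of the same module, 6 snoRNAs were higher, among them the 3 largest snoRNA rises of the 9 comparisons. snR36 was at 13.8, 16.1 and 12.2 CPM, 22.8 times its wild-type mean (log2 fold change 3.23, SE 0.41, adjusted p = 7.9e-07). sno52, of the C/D letter group, was at 53.6, 50.03 and 36.5 CPM against 7.02, 9.30 and 8.08 CPM (log2 fold change 2.37, SE 0.26, adjusted p = 3.2e-08). snR51b, also of the C/D letter group, was at 52.8, 55.4 and 19.3 CPM against 8.28, 1.73 and 7.54 CPM (log2 fold change 2.72, SE 0.51, adjusted p = 2.5e-04). For each of these RNAs every *pfs2-F115H* library lay above every wild-type library, which largely follows from the calls. Replicate 3 was still well below the other 2 for snR51b.

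3 further snoRNAs of the H/ACA class, whose members guide pseudouridine formation, were called in *pfs2-F115H*. snR90 was at 44.4, 60.8 and 38.7 CPM (log2 fold change 1.95, SE 0.36, adjusted p = 2.0e-04). snR46 was at 91.1, 81.2 and 66.7 CPM against 32.1, 34.05 and 37.7 CPM (log2 fold change 1.17, SE 0.23, adjusted p = 5.1e-04). snR33 was at 7.66, 5.92 and 6.35 CPM against 2.76, 1.42 and 2.69 CPM (log2 fold change 1.24, SE 0.41, adjusted p = 0.033), which is 9 to 11 reads in wild type and 10 to 24 in the mutant. The snR33 call was lost when any library of either strain was left out except wt replicate 1. It was also lost with a pseudocount of 0.1 or 4 CPM, with either median-of-ratios scaling or with a length trend removed. In total it was kept under 8 of 18 alternatives. snR101, at 91.1, 80.2 and 73.9 CPM against 44.6, 34.7 and 42.8 CPM, and snR94, at 78.9, 58.6 and 42.1 CPM against 34.4, 27.9 and 36.6 CPM, passed without the 2-fold minimum (0.99, adjusted p = 1.2e-04, and 0.81, adjusted p = 0.0042). The 6 higher calls of 38 stood beside 2.62% of all features, and 0 lower calls beside 0.508%. Without the minimum 8 were higher and 0 lower, beside 14.1% and 4.86%. The median of all 38 was 0.16 against 0.12 for all features.

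snR51b is the last of 3 snoRNAs that lie in a row on chromosome I, with 140 bases between snR41 and snR70 and 144 between snR70 and snR51b. Neither neighbour was called higher. snR70 was at 1.53, 4.30 and 2.65 CPM in *pfs2-F115H* and 4.77, 1.73 and 3.23 CPM in wild type (log2 fold change −0.15, SE 0.37, adjusted p = 0.81). snR41 was at 0.766, 2.69 and 0.529 CPM in the mutant and 0.752, 0 and 0.539 CPM in wild type and was too low to be tested.

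Set against each other, *yth1-R59C* and *pfs2-F115H* differed for part of these RNAs. sno52 was lower in *yth1-R59C* than in *pfs2-F115H* (log2 difference −1.93, SE 0.26, adjusted p = 7.6e-06), at 12.9, 12.7 and 9.02 CPM in *yth1-R59C*, and so was snR46 (−0.99, SE 0.23, adjusted p = 0.012). For snR36 (−1.33, SE 0.41, adjusted p = 0.078), snR51b (−1.65, SE 0.51, adjusted p = 0.077) and snR90 (−0.72, SE 0.36, adjusted p = 0.36) the difference did not pass. Each of these 3 was lower in all *yth1-R59C* libraries than in all of *pfs2-F115H*, but how many of all features separate in this way was not counted. Against *ssu72Δ*, snR36 was higher in *pfs2-F115H* (2.65, SE 0.41, adjusted p = 1.6e-05), as were sno52 (1.77, SE 0.26, adjusted p = 5.1e-06) and snR46 (1.21, SE 0.23, adjusted p = 2.8e-04).

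**Figure D3:**
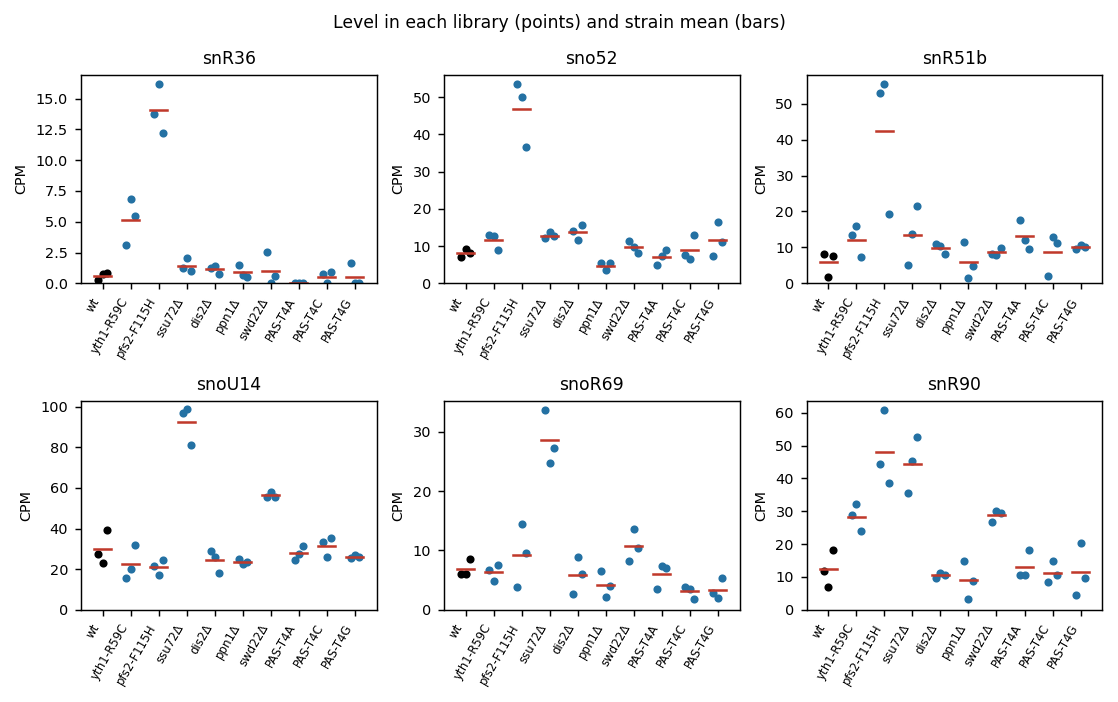
Level (CPM, linear axis from 0) of 6 snoRNAs in each library (points, replicates 1 to 3 from left) with the mean of each strain (bars). snR36, sno52 and snR51b stand out in *pfs2-F115H*, snoU14 and snoR69 in *ssu72Δ*, and snR90 is raised in 4 CPF mutants.

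In *ssu72Δ*, which lacks the CTD phosphatase Ssu72, 8 snoRNAs were higher and none was lower. snoU14 was at 97.1, 98.8 and 81.3 CPM against 27.3, 22.9 and 39.3 CPM in wild type (log2 fold change 1.63, SE 0.20, adjusted p = 1.9e-07). snoR69 was at 33.7, 24.8 and 27.3 CPM against 6.02, 5.99 and 8.62 CPM (log2 fold change 1.91, SE 0.38, adjusted p = 4.2e-04). snoZ, the primary transcript counted outside its 5 snoRNAs, was at 65.9, 92.97 and 93.5 CPM against 27.6, 18.9 and 22.1 CPM (log2 fold change 1.83, SE 0.26, adjusted p = 4.2e-06). In each case the lowest *ssu72Δ* library was above the highest wild-type library, which largely follows from the calls.

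3 of the other RNAs called in *ssu72Δ* come from introns. snoU18, in an intron of *ero11*, was at 8.94, 7.19 and 7.30 CPM against 3.26, 0.946 and 1.62 CPM (log2 fold change 1.65, SE 0.42, adjusted p = 0.0050). snoR39b, in *rpl701*, was at 13.7, 10.9 and 14.6 CPM against 5.02, 3.63 and 5.12 CPM (log2 fold change 1.33, SE 0.29, adjusted p = 0.0014). snoR54, in *gua1*, was at 13.5, 13.4 and 10.2 CPM against 4.51, 4.89 and 4.04 CPM (log2 fold change 1.28, SE 0.36, adjusted p = 0.011). The host messages of these 3 were not called, with log2 fold changes of 0.29 for *ero11* (adjusted p = 0.011), −0.14 for *rpl701* (0.14) and 0.04 for *gua1* (0.83). Of the 11 host genes, *nog2*, a GTPase gene of ribosome assembly whose intron holds snR191, was called higher, at a mean of 675 CPM against 331 CPM (log2 fold change 1.02, adjusted p = 1.8e-11). snR191 itself was at 107, 61.4 and 71.1 CPM against 59.7, 42.7 and 69.5 CPM (log2 fold change 0.46, SE 0.24, adjusted p = 0.22).

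The last 2 calls in *ssu72Δ* were snR90, at 35.6, 45.4 and 52.6 CPM (log2 fold change 1.85, SE 0.36, adjusted p = 3.2e-04), and snoR56, at 7.54, 8.35 and 7.79 CPM against 3.01, 3.15 and 2.15 CPM (log2 fold change 1.25, SE 0.37, adjusted p = 0.017). The snoR56 call was lost without wt replicate 3 (adjusted p up to 0.14 over all alternatives) or without *ssu72Δ* replicate 2 or 3. By class, 5 of 13 tested snoRNAs with C/D letters were called higher, with a median change of 1.07 and 11 of 13 above 0. In the H/ACA group 1 of 16 was called, with a median of −0.05 and 7 of 16 above 0. Of the 8 tested snoRNAs in neither group, snoZ aside, 1 was called, with a median of 0.62 and 7 of 8 above 0. The rise was thus not particular to the C/D letter group. The H/ACA group also holds longer RNAs, with a median annotated length of 170 bases against 83 and 86.5 in the other 2 groups. The 8 calls stood beside 2.96% of all features higher and 0.508% lower. Without the minimum, snoR61 was added (0.71, adjusted p = 0.027), which gave 9 higher and 0 lower beside 8.27% and 8.49%. The median of the 38 was 0.35 against 0.02 for all features, and 0.18 for 50 other features of up to 300 bases. With a trend on feature length removed, 5 snoRNAs were called, and snoR39b, snoR54 and snoR56 were not among them.

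Part of this was also seen in *swd22Δ*. snoU14 was at 55.4, 58.1 and 55.6 CPM (log2 fold change 0.93, SE 0.20, adjusted p = 7.6e-04), above every wild-type library, with *ssu72Δ* higher still (log2 difference 0.70, SE 0.20, adjusted p = 0.013). snoZ was at 46.5, 34.9 and 42.8 CPM (log2 fold change 0.84, SE 0.26, adjusted p = 0.021). snR90 was at 26.7, 30.04 and 29.5 CPM (log2 fold change 1.25, SE 0.36, adjusted p = 0.012) and snoR39b at 12.1, 10.7 and 9.26 CPM (log2 fold change 1.07, SE 0.29, adjusted p = 0.0086). The last 2 passed the 2-fold minimum, and snoU14 and snoZ did not. The snR90 call was lost without wt replicate 2, and that of snoR39b without wt replicate 2 or *swd22Δ* replicate 1.

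In *dis2Δ*, which lacks a phosphatase of the PP1 family, none of the RNAs called in *ssu72Δ* was called. snoU14 was at 28.9, 25.9 and 17.97 CPM and snoR69 at 2.57, 8.95 and 5.99 CPM, and both ranges overlapped those of wild type. The difference between *ssu72Δ* and *dis2Δ* was 1.91, SE 0.20, adjusted p = 5.2e-09 for snoU14, and 2.22, SE 0.38, adjusted p = 5.6e-05 for snoR69. No snoRNA was called higher or lower by limma, where 1.3% and 0.711% of all features were, and 7 of 38 had an unadjusted p under 0.05. edgeR and DESeq2 on the recovered reads also called 0. Without the minimum, snR30 was lower, at 649, 659.8 and 447 CPM against 911, 916 and 1161 CPM (log2 fold change −0.78, SE 0.25, adjusted p = 0.035). That made 0 higher and 1 lower, beside 7.24% and 4.8% of all features. The median was −0.22 against 0.09 for all features.

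A separate set of 6 H/ACA snoRNAs was lower in *swd22Δ* and PAS-T4G, and 3 of the 6 in PAS-T4A and PAS-T4C. snR91 was at 1.27, 3.88 and 6.94 CPM in *swd22Δ* against 25.1, 20.2 and 24.2 CPM in wild type (log2 fold change −2.44, SE 0.45, adjusted p = 1.6e-04). snR42 was at 16.5, 11.6 and 12.7 CPM against 39.4, 46.02 and 57.9 CPM (log2 fold change −1.73, SE 0.29, adjusted p = 5.5e-05), and snR98 at 9.55, 22.3 and 15.05 CPM against 47.7, 44.9 and 58.98 CPM (log2 fold change −1.70, SE 0.29, adjusted p = 5.5e-05). snR95 (−1.20), sno12 (−1.05) and sno20 (−1.03) were also called, with adjusted p = 4.2e-05, 0.0030 and 0.016. All *swd22Δ* libraries lay below all of wild type for each of the 6, which largely follows from the calls. The calls of sno12 and sno20 were lost without wt replicate 3, and also without *swd22Δ* replicate 1 and 3 in that order. In *swd22Δ* 2 snoRNAs were called higher and 6 lower, beside 1.17% and 1.73% of all features. Without the minimum 4 were higher and 7 lower, beside 7.17% and 12.9%, where the added lower RNA was snr79, of the C/D letter group, named after its value was seen (−0.76, adjusted p = 0.030). The median over all 38 was 0.03 against −0.04 for all features. It was −0.58 in the H/ACA group (11 of 16 below 0) and 0.21 in the C/D letter group (9 of 13 above 0). For the 8 tested snoRNAs in neither group, snoZ aside, it was 0.05 (5 of 8 above 0).

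In each PAS mutant snR91, snR42 and snR98 were called lower. In PAS-T4A, snR91 was at 2.11, 12.6 and 7.08 CPM (−1.78, adjusted p = 0.011), snR42 at 16.2, 17.96 and 15.5 CPM (−1.46, adjusted p = 0.0014) and snR98 at 16.9, 21.95 and 25.8 CPM (−1.20, adjusted p = 0.0074). In PAS-T4C, snR91 was at 8.87, 5.32 and 6.02 CPM (−1.66, adjusted p = 0.032), snR42 at 24.9, 20.1 and 12.04 CPM (−1.32, adjusted p = 0.0074) and snR98 at 14.1, 14.2 and 13.4 CPM (−1.78, adjusted p = 2.0e-04). In PAS-T4G, snR91 was at 3.89, 0.965 and 5.83 CPM (−2.58, adjusted p = 2.3e-04), snR42 at 11.7, 14.5 and 9.55 CPM (−1.92, adjusted p = 3.7e-05) and snR98 at 14.999, 20.3 and 12.2 CPM (−1.63, adjusted p = 2.5e-04). Every PAS library was below every wild-type library for these 3 RNAs, which largely follows from the calls. PAS-T4G also had sno12, snR95 and sno20 called lower, at log2 fold changes of −1.29, −1.17 and −1.18. Its only rise without a minimum was snoR39b (0.92, adjusted p = 0.044), at 8.89, 10.6 and 9.02 CPM against 5.02, 3.63 and 5.12 CPM.

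The numbers called lower were 3 in PAS-T4A (0.22% of all features), 3 in PAS-T4C (0.152%) and 6 in PAS-T4G (0.457%), and those called higher were 1, 0 and 0 (0.0677%, 0.0169% and 0.0677%). Without the minimum 4, 4 and 7 were lower (4.06%, 2.59% and 4.53%) and 2, 0 and 1 were higher (3.28%, 1.18% and 4.35%). The medians of the 38 were −0.27 against 0.01 for all features in PAS-T4A, −0.37 against −0.04 in PAS-T4C and −0.31 against 0.04 in PAS-T4G. Without PAS-T4A replicate 1 the calls of snR98 and snR91 were lost in that mutant (2 calls against 4), and without PAS-T4C replicate 3 that of snR42 was lost in PAS-T4C (1 call against 3). The call of snR91 in PAS-T4C was lost when any wt library or PAS-T4C replicate 2 or 3 was left out. That of sno20 in PAS-T4G was lost without wt replicate 3 or PAS-T4G replicate 1 or 2. Over all alternatives the first was kept under 9 of 17 and the second under 11 of 17.

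snR30, also of the H/ACA group, was called higher in PAS-T4A alone, at 1199, 2723 and 2433 CPM against 911, 916 and 1161 CPM (log2 fold change 1.01, SE 0.25, adjusted p = 0.0090), a call lost without wt replicate 1 or 2 or without PAS-T4A replicate 2 or 3. In PAS-T4C it was at 2357, 1554 and 1257 CPM (0.75, adjusted p = 0.087) and in *swd22Δ* at 1241, 1417 and 1578 CPM (0.51, adjusted p = 0.16). In PAS-T4G it was at 1187, 954 and 1228 CPM (0.17, adjusted p = 0.74), a range that overlapped that of wild type. As a share of the summed snoRNA level, snR30 took 49.7% to 53.7% in wild type and 36.9% to 46.9% in *yth1-R59C*, *pfs2-F115H*, *ssu72Δ* and *dis2Δ*. It took 62.5% to 78.2% in *swd22Δ* and the PAS mutants, and these ranges did not overlap. The share is not a measure separate from the 6 H/ACA snoRNAs above. In wild type those 6 summed to 493 to 676 CPM, where all snoRNAs but snR30 summed to 790 to 1100 CPM. A fall of the 6 therefore raises the share by itself.

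The libraries labelled *ppn1Δ* were split by the same measures. The share of snR30 was 44.5% in replicate 1, and 69.1% and 66.7% in replicates 2 and 3. snR98 was at 60.3, 16.9 and 16.8 CPM, so replicate 1 was just above the wild-type range and the other 2 were within the range of *swd22Δ* and the PAS mutants. The median ratio of the 6 H/ACA snoRNAs to their wild-type mean was 0.821 in replicate 1, 0.525 in replicate 2 and 0.588 in replicate 3, where *swd22Δ* lay at 0.358 to 0.422 and the PAS mutants at 0.311 to 0.606. The 6 were picked as called lower in *swd22Δ* and PAS-T4G, so low ratios there follow from the choice. The other mutants ran on from these, with *dis2Δ* at 0.611 to 0.837 and *yth1-R59C* at 0.650 to 1.10. *ssu72Δ* lay at 0.692 to 1.33 and *pfs2-F115H* at 0.707 to 1.13. In the libraries labelled *ppn1Δ* no snoRNA was called higher or lower against wild type by limma, beside 0.643% and 0.0677% of all features, with 4 of 38 at an unadjusted p under 0.05 and 0 calls by edgeR or DESeq2. Without the minimum the counts were also 0 and 0, beside 1.39% and 1.05%. With replicate 1 left out, 1 snoRNA was called instead of 0, namely snR98 (log2 fold change −1.52, adjusted p = 2.2e-05), which restates the split of its values above, and snR95 passed only without the minimum (−0.83, adjusted p = 0.011). The median of the 38 was −0.26 against 0.01 for all features.

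**Figure D4:**
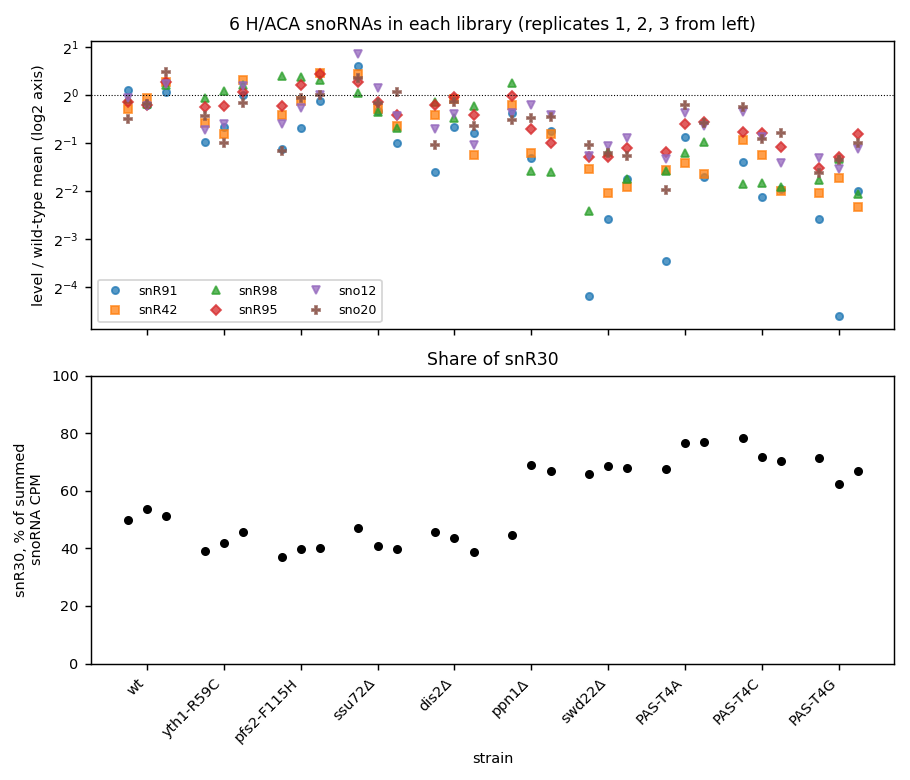
Upper panel, level of 6 H/ACA snoRNAs in each library divided by the wild-type mean (log2 axis), and lower panel, snR30 as a percentage of the summed snoRNA CPM (replicates 1 to 3 of each strain from left). The libraries of *swd22Δ*, the PAS mutants and replicates 2 and 3 of the strain labelled *ppn1Δ* have snR30 shares of 62.5% or more, and all other libraries 53.7% or less.

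The strains that share this pattern include the 3 PAS mutants, whose change lies in the reporter alone. The labels give no date or batch for RNA or libraries. In *swd22Δ* and the PAS mutants, where all libraries share the pattern, a batch and the strain therefore cannot be told apart. Under the label *ppn1Δ* the pattern split between replicates, as given above. The part of library preparation in the result was not tested. Feature length moved with it, by the median log2 ratio to wild type of 1145 other features of over 300 and up to 1000 bases. This ratio was −0.20 to −0.14 in *swd22Δ* libraries and −0.19 to −0.05 in PAS libraries. It was −0.03 to 0.16 in *yth1-R59C*, *pfs2-F115H*, *ssu72Δ* and *dis2Δ*. Under the label *ppn1Δ* it was 0.05 in replicate 1, −0.09 in replicate 2 and −0.07 in replicate 3. For 50 other features of up to 300 bases the ratio was 0.03 to 0.06 in *swd22Δ* and −0.24 to 0.11 in the PAS libraries. Under the label *ppn1Δ* it was −0.12 to 0.12. By limma on log2(CPM + 1), the median change of these 50 in *swd22Δ* was −0.04, as for all features. Of the 50, 0 were called higher and 2 lower there. With a trend on length removed, snR91, snR42 and snR98 were still called lower in *swd22Δ* and PAS-T4G, while snR95, sno12 and sno20 were lost in *swd22Δ*. Set directly against each PAS mutant, none of the 6 snoRNAs passed in *swd22Δ* (18 tests, log2 differences of −0.77 to 0.25 with SE of 0.20 to 0.45, lowest adjusted p = 0.16).

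snoU14, snoZ and snR90 were different in this respect. Each was higher in *swd22Δ* than in each PAS mutant, by 1.00, 0.83 and 1.08 for snoU14 against PAS-T4A, PAS-T4C and PAS-T4G (adjusted p = 7.9e-04, 0.0052 and 2.1e-04). For snoZ the differences were 1.00, 1.38 and 0.95 (adjusted p = 0.011, 5.9e-04 and 0.012), and for snR90 they were 1.12, 1.31 and 1.48 (adjusted p = 0.042, 0.017 and 0.0046).

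Because the PAS mutants have intact CPF genes, each CPF mutant was also set against the 9 PAS libraries, a reference chosen after the data were seen. In *swd22Δ*, 4 snoRNAs were then called higher and 0 lower, beside 1.23% and 1.22% of all features. The 4 were snoZ (1.11, adjusted p = 3.2e-04), snR90 (1.30, adjusted p = 0.0018), snoR69 (1.27, adjusted p = 0.0038) and snoR54 (1.01, adjusted p = 0.014). snoR39b, called higher in *swd22Δ* against wild type, was not called against this reference. Its call was also lost against wild type and the PAS mutants together. In *ssu72Δ* 15 were higher and 0 lower (4.38% and 0.558%), with snoU14 at 1.67, adjusted p = 6.0e-10 and snoR69 at 2.61, adjusted p = 5.0e-08. In *pfs2-F115H* 13 were higher and 1 lower (3.69% and 0.44%), with snR36 at 3.55, adjusted p = 7.2e-10 and sno52 at 2.28, adjusted p = 3.5e-10. These counts include the H/ACA snoRNAs that are low in the PAS libraries themselves, such as snR98, snR42 and snR91. In *yth1-R59C* 5 were higher and 1 lower (1.69% and 0.22%), in *dis2Δ* 3 and 1 (1.95% and 0.541%), and in the libraries labelled *ppn1Δ* 1 and 0 (0.609% and 0.271%). The RNA called lower in *yth1-R59C*, *pfs2-F115H* and *dis2Δ* was snR30 in each case.

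Features downstream of snoRNAs were examined as a place where transcripts that run on would be read. Within 1000 bases of the end of 9 snoRNAs another feature starts on the same strand, and 3 of 81 tests of these were called, 1 each in *ssu72Δ*, *swd22Δ* and *pfs2-F115H*. Of all features, 0.508% were called lower in *ssu72Δ*, 1.73% lower in *swd22Δ* and 2.62% higher in *pfs2-F115H*. SPAC3G6.05, 601 bases downstream of snoR69, was lower in *ssu72Δ* (log2 fold change −1.31, adjusted p = 3.0e-08) and *swd22Δ* (−1.40, adjusted p = 7.9e-09), at means of 76.7 and 71.4 CPM against 190.0 CPM in wild type. Its fall was not particular to these strains. Without the minimum it was also lower in *pfs2-F115H* (−0.995, adjusted p = 6.2e-06) and the libraries labelled *ppn1Δ* (−0.94, 2.0e-05). The same held in *yth1-R59C* (−0.67, 0.0039) and PAS-T4A (−0.49, 0.030), but not in *dis2Δ*, PAS-T4C or PAS-T4G. SPAC10F6.15, 622 bases downstream of snoZ16, was higher in *pfs2-F115H*, at a mean of 3.68 CPM against 0.897 CPM (1.34, adjusted p = 0.026). Since the counts cover annotated features only, reads just past a snoRNA are not in them. In the 200 bases behind the annotated end, AATAAA was found on the strand of the gene in 17 of 56 snoRNAs (30.4%) and in 30.9% of 6847 features. It was behind 1 of the 6 snoRNAs higher in *yth1-R59C* or *pfs2-F115H*, at base 169 after sno52, and behind 1 of the 8 higher in *ssu72Δ*, at base 84 after snoR69. It was behind 3 of the 6 lower in *swd22Δ* (50.0%).

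The genes that build and process snoRNA particles were read from a list of 27, covering the H/ACA and C/D core proteins, the U3 particle, assembly factors and nucleases or termination factors. All 27 were tested, and 0 of 243 tests were called at 2-fold by limma, with 44 at an unadjusted p under 0.05, and 0 were called by edgeR or DESeq2. Without the minimum, 8 of 27 were lower in *swd22Δ*, where 12.9% of all features were. Only part of the 8 are named here, so the names do not show which kind of gene fell. They are the C/D core gene *nop56* (−0.33, adjusted p = 0.0017) and 3 H/ACA core genes. These 3 were *nhp2* (−0.67, 0.0012), *nop10* (−0.67, 0.021) and *cbf5* (−0.26, 0.011). The value of *gar1*, the other H/ACA core gene of the list, is not given here, so these names do not describe the H/ACA core. A link between the named genes and the levels of H/ACA snoRNAs was not tested. *nop10* was also lower in PAS-T4C (−0.77, adjusted p = 0.033). *sen1*, a helicase gene known in budding yeast for ending snoRNA transcription, was higher in *yth1-R59C* (0.24, adjusted p = 0.036), *pfs2-F115H* (0.33, 8.0e-04) and *swd22Δ* (0.31, 0.0011), where 2.84%, 14.1% and 7.17% of all features were higher without a minimum. Over the list the changes ran from −0.77 to 0.45.

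14 of the 38 tested snoRNAs passed in no comparison, even without a minimum change. They were snR191, snR3, snR40, snR70, snR92, snR93, snoR02, snoR38, snoR39a, snoR47, snoR58, snoR69b, snoU24b and snoZ16, with log2 fold changes between −1.03 for snoU24b in *dis2Δ* and 1.11 for snR40 in *ssu72Δ* (adjusted p = 0.051). Most of these had under 10 CPM in wild type, and the highest was snR191 at 57.3 ± 13.5 CPM (SD, n = 3).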

How the data were processed

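Total RNA was made into strand-specific libraries (TruSeq Stranded Total RNA) and read as 50-base single ends. The authors aligned reads with STAR 2.7.3a, counted uniquely mapped reads per PomBase feature by strand with featureCounts, left out reads over several features and deposited CPM values. Whole reads were recovered from the steps of these CPM values (100% whole at a tolerance of 0.05 reads). Libraries held 1031965 to 6344396 reads, so 3 reads were 0.473 to 2.91 CPM. The 7 small RNA samples were not analysed here.

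Features with a mean of at least 1 CPM (5911) were tested by limma 3.58.1 in R 4.3.3 on log2(CPM + 1), in 1 fit of all 10 strains (20 residual degrees of freedom), an intensity trend and Benjamini-Hochberg adjustment over all of them. Calls needed an adjusted p under 0.05 and 2-fold. Alternatives were edgeR 4.0.16 and DESeq2 1.42.0 on the recovered reads, pseudocounts of 0.1 and 4 CPM, no filter or a minimum of 10 CPM, median-of-ratios scaling over all features or over snoRNAs, a length trend removed, a replicate block, 2-strain fits, other references and single omissions. Tests were tried on simulated data. Members, lists and reference groups were chosen with earlier results of these data known. Named were every called snoRNA, the highest 10 in wild type, the largest rise and fall without a minimum per mutant, called genes of the lists with part of those that passed, and the mutated genes. 6850 of 6996 identifiers matched the RefSeq copy of the genome and 146 did not.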

Additional observations from a re-analysis of the deposited data

How the results depend on the processing

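The 37 calls had 668 values under the alternatives, of which 571 stayed calls in the same direction, 97 missed a threshold and 0 changed sign. edgeR and fits of 2 strains kept 37, DESeq2 35, median-of-ratios scaling 34, and the length trend and the scaling over snoRNAs 26 each. The scaling over snoRNAs shifted the median of all genes by −0.46 in *ssu72Δ* to 0.41 in PAS-T4C, and median-of-ratios scaling by −0.12 in *pfs2-F115H*. In *yth1-R59C*, 2 calls became 0 with a pseudocount of 0.1 CPM, 1 with a pseudocount of 4 CPM, with no filter, with a minimum of 10 CPM, with median-of-ratios scaling and with DESeq2, and 4 or 6 against wild type with the PAS mutants or the PAS mutants alone. In *ssu72Δ*, 8 became 5 with a pseudocount of 4 CPM, scaling over snoRNAs or the length trend, 3 with the 10 CPM minimum (fewer snoRNAs tested), and 13 or 15 against the other references. Against the PAS mutants *pfs2-F115H* had 14, *dis2Δ* 4, the *ppn1Δ* label 1 and *swd22Δ* 4, and with wild type added *dis2Δ* had 1 and *swd22Δ* 3. *dis2Δ* had 1 without a minimum change, PAS-T4A 2 with no filter, the snoRNP list 12 and the downstream features 15 without a minimum. Leaving out single libraries gave 1 to 2 in *yth1-R59C*, 5 to 7 in *pfs2-F115H*, 7 to 9 in *ssu72Δ*, 0 to 1 for *ppn1Δ*, 6 to 9 in *swd22Δ*, 2 to 4 in PAS-T4A, 1 to 4 in PAS-T4C, 5 to 6 in PAS-T4G and 2 to 4 for downstream features. Beyond the settings built to change what is tested, the cause was not tested. With a replicate block 36 calls were kept and snR90 in *yth1-R59C* was lost (1 call there), and in no mutant did every library correlate over 0.1 with its wild-type library of the same number, so the numbers do not pair them. With 24 to 41 of the 56 snoRNAs at 3 reads or more in a library, depth limits what could be detected.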
